A study of Mus musculus with 12 samples.

Results

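The transcripts described here encode 10 axon guidance proteins: the secreted ligands Slit1 and Slit2, their receptors Robo1 and Robo2, the ligand netrin-1 (Ntn1), and the netrin receptors Dcc, Unc5a, Unc5b, Unc5c and Unc5d. They were chosen by name, as core members of the Slit-Robo and netrin-DCC-Unc5 pathways, out of 52550 genes in the deposited count table. All 10 were found in the table, and all 10 were among the 18458 genes that passed the filter on low counts. RNA immunoprecipitation followed by sequencing (RIP-seq) recovers the transcripts bound to a protein with an antibody against it. Here the proteins were Ythdf1 and Ythdf2, cytoplasmic readers of N6-methyladenosine (m6A), a methyl mark on adenosines in mRNA. In wild-type C57BL/6 mice, the cortex of E12.5 embryos (embryonic day 12.5) and the retina of P0 pups (postnatal day 0) were dissociated, and the input RNA, the anti-Ythdf1 immunoprecipitate (IP) and the anti-Ythdf2 IP were sequenced. There were 6 groups of 2 libraries, 12 in all, and no library from an unrelated antibody, which leaves the input as the background. Tissue and age differ together between cortex and retina. The labels do not say whether replicates came from separate animals or pools, so the p-values measure only the spread between these libraries, which may be technical.

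Slit proteins bind Robo receptors on the growth cone and mostly repel it, and this signal keeps commissural axons from crossing the midline again. Netrin-1 attracts growth cones through Dcc and repels them through Unc5 receptors, alone or together with Dcc. In the developing visual system netrin-1 guides ganglion cell axons into the optic nerve and Slits channel them along their path, while in the cortex Slit, Robo and Dcc act on the migration of neurons and on the tracts they send out.

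m6A was not measured in these libraries. Because the reader proteins bind m6A, which is written most often within a short consensus of which GGACT is a common form, the transcripts were searched for these letters on the transcript strand. The search used 1 coding transcript per gene from GENCODE M21 on mouse build GRCm38. All 10 transcripts held at least 1 GGACT, as did 92.5% of the 14156 protein-coding genes examined. Slit1 held 12, 11 of them in the coding sequence, Slit2 held 20 and Ntn1 held 13. These were 2.38, 2.01 and 2.21 per kilobase, against a median of 1.05 per kilobase over all genes. Robo2 with 0.668 and Dcc with 0.678 per kilobase were the lowest of the 10. Unc5b held 5 matches and Unc5c 10, or 0.852 and 1.037 per kilobase, both below the median over all genes. Of the match nearest to the end of the coding sequence, 25 bases are shown for the ligands and for Unc5b and Unc5c, with the match in capitals. The windows lie at chr19:41600498-41600522, minus strand, in coding sequence of the last exon (Slit1); chr5:48304288-48304312, plus strand, in the 3' UTR (Slit2); chr11:68212931-68212955, minus strand, in the 3' UTR (Ntn1); chr10:60769224-60769248, minus strand, in coding exon 14 of 17 (Unc5b); and chr3:141801389-141801413, plus strand, in coding exon 11 of 16 (Unc5c).
Slit1: tgcagcgatgGGACTtcgtttgctg
Slit2: tgaccatgttGGACTaattcatgct
Ntn1: tggcagccttGGACTtggccgtcag
Unc5b: gagctggagaGGACTctgggtggct
Unc5c: ccagcaccgaGGACTggaagatcca
A match is a description of the letters and not a methylated site. Across the 14156 genes, the Spearman correlation between GGACT per kilobase and the log2 fold change over input was 0.162 for the retina Ythdf1 IP and 0.064 or less for the other 3 IPs.

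The libraries held 19530226 to 40515980 counts, of which 4.65% to 41.1% fell in protein-coding genes. Levels are given as CPM with library sizes corrected by the trimmed mean of M values (TMM), called normalised CPM, and 3 counts are worth between 0.0283 and 0.356 normalised CPM in these libraries. The library labelled cortex input replicate 1 stood apart. Its rank correlation with cortex input replicate 2 over protein-coding genes was 0.584, against 0.908 to 0.978 for the replicate pairs of the other 5 groups. Its 10 cortical progenitor markers summed to 44.7 normalised CPM, with Emx1 and Hes5 at 0, against 593 to 856 in the other 5 cortex libraries. Its 6 markers of mature brain neurons summed to 1412 and its 6 astrocyte and oligodendrocyte markers to 1395 normalised CPM, against 13.5 to 20.3 and 4.45 to 7.52 in the other cortex libraries. Retinal progenitor markers (7) summed to 540 to 1106 normalised CPM in retina and photoreceptor precursor markers (6) to 116 to 179, against at most 149 and 9.91 in cortex, and Emx1 was at 0 in all 6 retina libraries. The cortex fold changes over input are therefore also given without replicate 1 for each member, and the comparisons between tissues for some members. This leaves a single cortex input, assumed to vary as the other groups do.

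In the P0 retina, all 10 guidance transcripts had fitted levels above the input in both IPs, but none passed the test. Of all genes, 45.9% lay above input with Ythdf1 and 46.9% with Ythdf2. A gene was called at a Benjamini-Hochberg adjusted p under 0.05 over the 18458 genes in edgeR's quasi-likelihood test, with 2 libraries in each group. By this rule 3.57% of all genes were called higher and 5.23% lower in the Ythdf1 IP, and 0.282% and 1.76% in the Ythdf2 IP. Of the 10 members, 2 had an unadjusted p under 0.05 in each IP, among 4944 and 3039 of the 18458 genes. DESeq2 also called 0 members in each. It called 8.05% of genes higher and 11.5% lower with Ythdf1, and 2.83% and 5.73% with Ythdf2. The members' median log2 fold change was 0.99 for Ythdf1 and 0.97 for Ythdf2, against 0.00 over all genes in each case. These medians depended on single inputs: they were 1.42 and 1.67 without retina input replicate 2, and 0.77 and 0.78 without replicate 1. Both IPs share the same 2 input libraries.

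Slit1 and Slit2, the ligands of the Robo receptors, were at low levels in the retina inputs. Slit2 stood at 2.64 and 5.63 normalised CPM in the inputs, at 11.9 and 10.1 with Ythdf1 and at 9.50 and 8.46 with Ythdf2, so that every IP library lay above both inputs. Its log2 fold change was 1.41 (SE 0.62, adjusted p = 0.172) for Ythdf1 and 1.12 (SE 0.62, adjusted p = 0.400) for Ythdf2, by edgeR. Slit1 stood at 5.67 and 3.48 normalised CPM in the inputs, at 10.2 and 9.48 with Ythdf1 and at 5.06 and 9.04 with Ythdf2. Here only the Ythdf1 IPs lay clear of the inputs, at a log2 ratio of 1.11 (SE 0.52, adjusted p = 0.195, edgeR). In the Ythdf2 IP the Slit1 libraries overlapped the inputs, and the log2 fold change was 0.62 (SE 0.52, adjusted p = 0.590, edgeR).

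The Slit receptors had smaller fold changes than the Slits with either antibody, a difference that was not tested. Robo1 stood at 5.49 and 9.43 normalised CPM in the retina inputs, at 13.7 and 14.2 with Ythdf1 and at 9.15 and 7.99 with Ythdf2. The Ythdf1 libraries lay above both inputs (log2 fold change 0.91, SE 0.50, adjusted p = 0.267, edgeR), while those of Ythdf2 lay between them (0.20, SE 0.50, adjusted p = 0.921). Robo2 stood at 9.11 and 15 normalised CPM in the inputs, at 15.4 and 16.7 with Ythdf1 and at 23.6 and 12.6 with Ythdf2. The Ythdf1 libraries were just above the higher input, the 2 Ythdf2 libraries lay on either side of it, and the log2 fold changes were 0.41 and 0.58 (SE 0.55 for both).

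Netrin-1 was scarcely detected in the retina. Its transcript had 9 and 0 counts in the inputs, 28 and 5 with Ythdf1 and 15 and 25 with Ythdf2. That is 0.313 and 0 normalised CPM in the inputs, where 3 counts equal 0.104 and 0.106, then 0.901 and 0.189 with Ythdf1 and 0.758 and 1.31 with Ythdf2. Only the Ythdf2 IPs lay above both inputs. Its fitted log2 fold changes, 1.79 (SE 1.14, adjusted p = 0.332) and 2.70 (SE 1.14, adjusted p = 0.268), rest on these few reads. Dcc, the netrin receptor that mediates attraction, stood at 2.82 and 6.97 normalised CPM in the inputs, at 8.43 and 8.39 with Ythdf1 and at 9.61 and 7.67 with Ythdf2. All 4 Dcc IP libraries were above both inputs, but the inputs differed from each other by more than the nearer one differed from the IPs, and the log2 fold changes were 0.78 and 0.82 (SE 0.83 for both).

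Among the repulsive netrin receptors, Unc5b had the largest ratio to retina input of the 4 in both IPs. It stood at 0.278 and 0.387 normalised CPM in the inputs (8 and 11 counts), at 1.45 and 1.096 in the Ythdf1 IPs (45 and 29 counts) and at 1.26 and 1.52 in the Ythdf2 IPs (25 and 29 counts). All 4 IP libraries lay above both inputs. The log2 fold change was 1.93 (SE 0.64, adjusted p = 0.0798) for Ythdf1 and 2.06 (SE 0.64, adjusted p = 0.134) for Ythdf2, by edgeR. Unc5b is also known from endothelial cells, and the 5 endothelial markers summed to 38.7 and 39.0 normalised CPM in the inputs, to 158 and 156 in the Ythdf1 IPs and to 83.6 and 85.0 in the Ythdf2 IPs. Kdr alone made up most of that sum, with 34.7 and 36.5 in the inputs and 148.3 and 147.9 in the Ythdf1 IPs, while Cdh5 stood at 0.152 to 0.416 and Pecam1 and Tek at 0 to 0.354 normalised CPM in all 6 retina libraries. Cldn5, with 3.51 and 2.01 in the inputs, had 9.24 and 7.94 with Ythdf1 and 2.48 and 2.42 with Ythdf2. The part of these cells in the Unc5b values was not tested.

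Unc5c stood at 1.88 and 4.89 normalised CPM in the retina inputs, at 5.05 and 5.37 with Ythdf1 and at 8.04 and 8.88 with Ythdf2. The Ythdf2 libraries were the highest of the 6, and the log2 fold changes were 0.62 (SE 0.61) for Ythdf1 and 1.32 (SE 0.62, adjusted p = 0.316, edgeR) for Ythdf2. Unc5a, at 6.67 and 3.20 in the inputs, 7.08 and 6.42 with Ythdf1 and 6.67 and 4.57 with Ythdf2, lay near its input (log2 fold changes 0.45 and 0.19, SE 0.91 for both). Unc5d stayed at 0.243 to 2.00 normalised CPM across the 6 libraries, with overlapping groups. Marker sums of several retinal cell types also differed between inputs and IPs. The 7 markers of retinal ganglion cells, whose axons leave the eye, summed to 49.1 and 44.3 normalised CPM in the inputs and to 22.8 to 26.9 in the 4 IPs. The 8 markers of early neurons summed to 71.8 and 66.1 in the inputs, 194 and 190 with Ythdf1 and 90.5 and 91.5 with Ythdf2, with Neurod6 at 0 in all 6 libraries. The 7 retinal progenitor markers summed to 1106 and 737 in the inputs, 540 and 542 with Ythdf1 and 780 and 742 with Ythdf2. The 6 photoreceptor precursor markers summed to 121 and 116 in the inputs and to 160 to 179 in the IPs, and the 10 cortical progenitor markers, with Emx1 at 0, to 246 and 331 in the inputs and to 171 to 218 in the IPs. The 7 amacrine and horizontal cell markers summed to 90.6 and 168 in the inputs and to 83.3 to 90.1 in the IPs. Their part in the members' values was not tested.

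**Figure D1:**
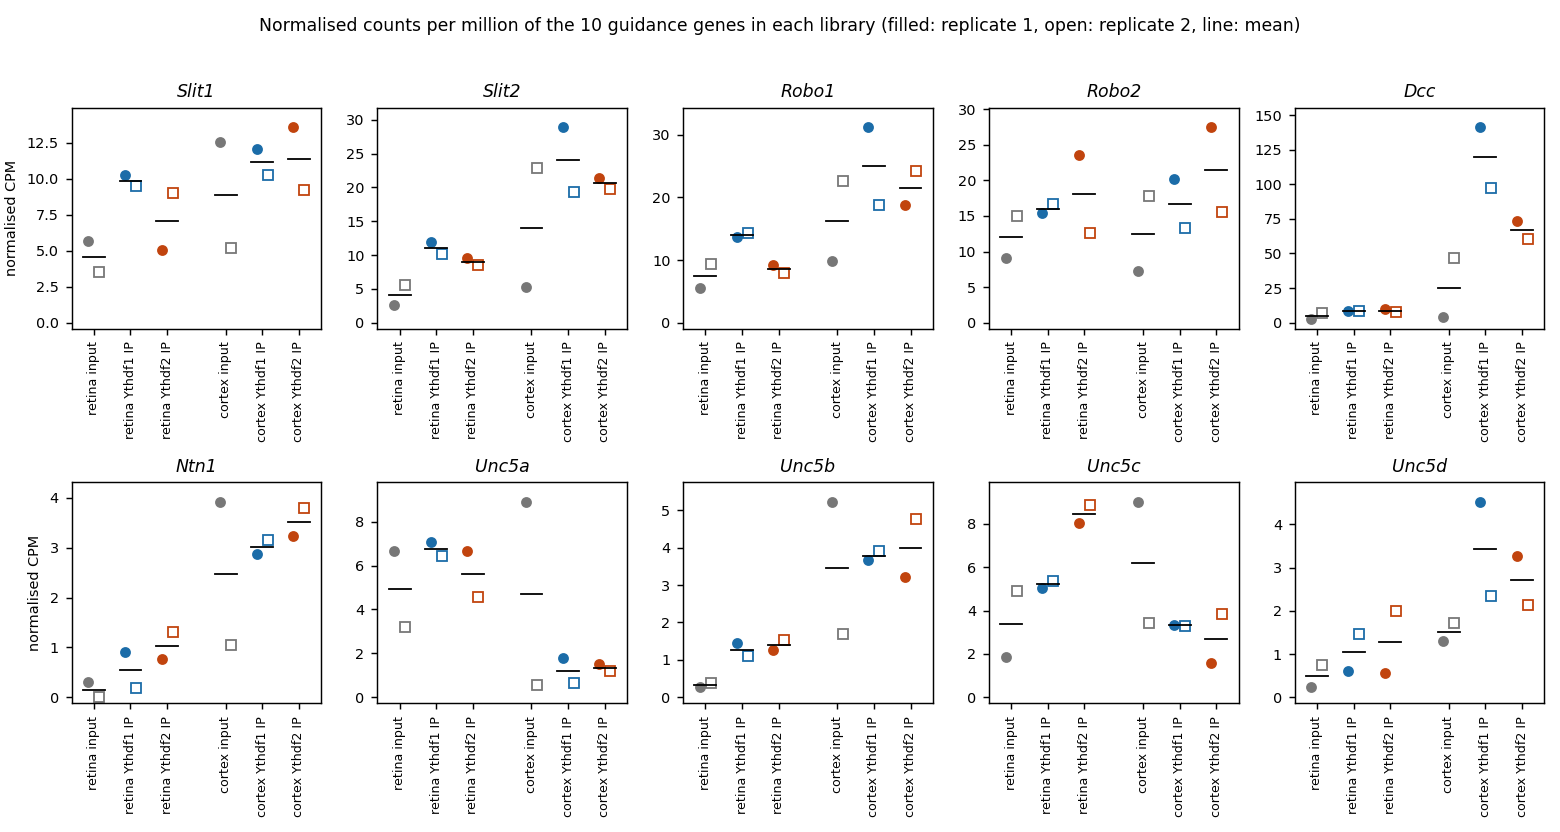
Normalised CPM of each guidance transcript (linear axes, scaled separately by gene) in input, Ythdf1 IP and Ythdf2 IP of P0 retina and E12.5 cortex, with filled points for replicate 1, open squares for replicate 2 and a line at the mean. Dcc reaches 141.1 in a cortex Ythdf1 IP against 4.15 and 46.5 in the cortex inputs, and the 4 retina IP points of Slit2, Dcc, Unc5b and Unc5c lie above both retina inputs.

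Counted by position alone, both retina Ythdf1 IPs exceeded both inputs for 7 of the 10 members (Slit1, Slit2, Robo1, Robo2, Dcc, Unc5b and Unc5c), where this held for 31.4% of all genes. Both Ythdf2 IPs did so for 5 (Slit2, Dcc, Ntn1, Unc5b and Unc5c), against 26.9% of all genes. For none of the 10 did both retina IPs of an antibody lie below both inputs, which held for 30.1% of all genes with Ythdf1 and 25.9% with Ythdf2. These shares are over genes of all lengths, whereas the members' transcripts were long, as described below.

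Whether a retina member was called depended on which libraries were in the fit. Changing the libraries changed the shared estimate of the spread, the genes that passed the filter and the scaling. The part of each in the calls was not tested. With only the 6 retina libraries in edgeR, Slit2 (log2 fold change 1.31, SE 0.36, adjusted p = 0.0190) and Unc5b (1.81, SE 0.58, adjusted p = 0.0339) rose in the Ythdf1 IP, where 17.3% of all genes were called higher. In the same fit Unc5b (2.07, SE 0.58, adjusted p = 0.0350) and Unc5c (1.35, SE 0.42, adjusted p = 0.0485) rose in the Ythdf2 IP, against 9.55% of genes. Leaving out cortex input replicate 1, which is in no retina comparison but feeds the shared spread, gave 3 calls for Ythdf1 and 1 for Ythdf2. These were Slit1 (1.12, SE 0.37, adjusted p = 0.0332), Slit2 (1.42, SE 0.37, adjusted p = 0.00912) and Unc5b (1.94, SE 0.49, adjusted p = 0.00784) with Ythdf1, and Unc5b (2.06, SE 0.50, adjusted p = 0.0120) with Ythdf2, by edgeR. The background was then 13.7% and 5.82% of genes higher. Leaving out cortex input replicate 2 instead gave 2 calls for Ythdf1 (Slit2 and Unc5b, background 10.3%) and 1 for Ythdf2 (Unc5b, background 4.49%). No other single library left out gave a call among the retina members. In the fits that gave calls, the log2 fold change of Unc5b lay between 1.72 and 1.94 for Ythdf1 and between 1.96 and 2.07 for Ythdf2. All of these fits kept the same retina libraries, so this range could not show how far those libraries vary.

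**Figure D2:**
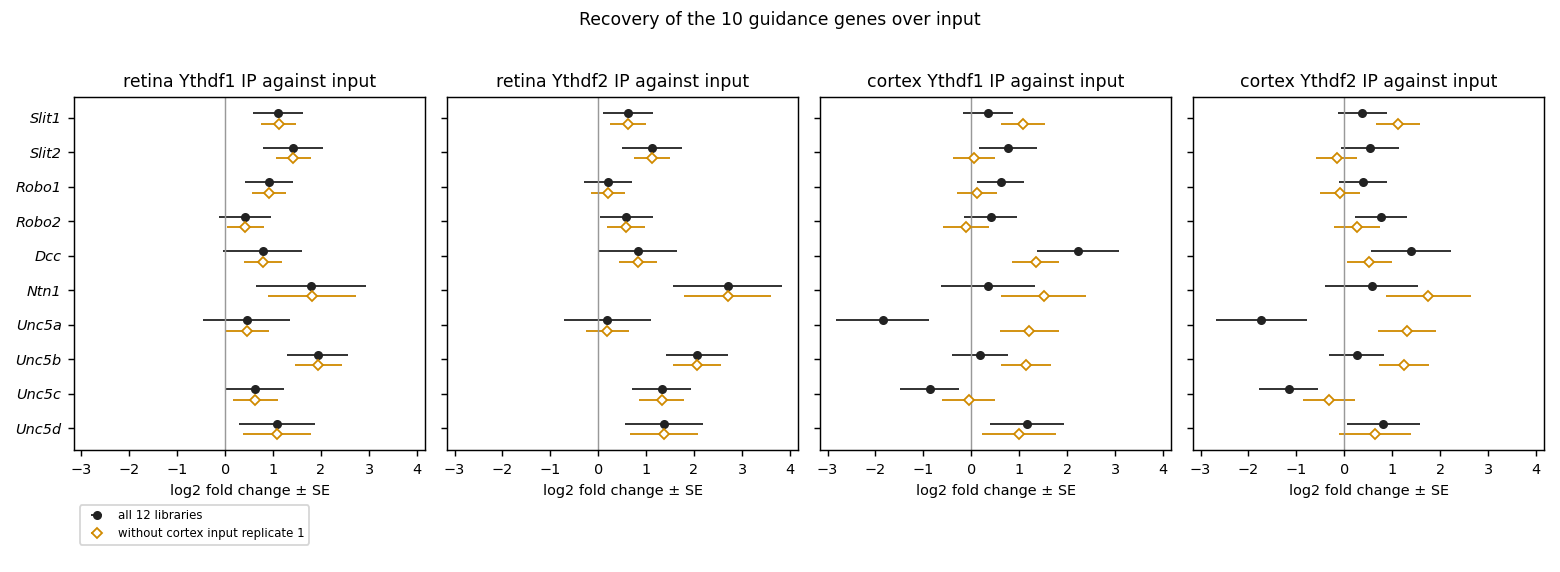
Log2 fold change over input of the 10 transcripts in each of the 4 IPs by edgeR, with bars of 1 SE, from all 12 libraries (black) and without cortex input replicate 1 (open diamonds). All retina values lie above 0, and cortex Unc5a moves from -1.85 to 1.21 with Ythdf1 and from -1.73 to 1.30 with Ythdf2 when that library is left out.

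In the E12.5 cortex, Dcc was the most abundant of the 10 transcripts in both IPs and with both inputs had the highest log2 fold change, but no member passed the test with either antibody. The highest without cortex input replicate 1 was that of Ntn1, at 1.51 (SE 0.88) with Ythdf1 and 1.75 (SE 0.89) with Ythdf2. By the same edgeR rule 0.00542% of genes were called higher and 0% lower with Ythdf1, and 0.0108% and 0% with Ythdf2. At an unadjusted p under 0.05 there was 1 member, Dcc, with Ythdf1 and 0 with Ythdf2, among 2884 and 3562 genes. DESeq2 called 1 member (Dcc) and 0. With each antibody 8 of 10 members were above 0, where 50.4% of all genes were with Ythdf1 and 51.2% with Ythdf2. The members' medians were 0.38 and 0.46, against 0.00 and 0.04 over all genes. The medians were 1.04 and 0.58 without cortex input replicate 1, with 8 and 7 members above 0, and without cortex Ythdf1 IP replicate 1 the Ythdf1 median was 0.12.

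Dcc stood at 4.15 and 46.5 normalised CPM in the cortex inputs, at 141.1 and 97.6 with Ythdf1 and at 73.2 and 60.8 with Ythdf2. All 4 IP libraries lay above both inputs, and the ratio between the 2 inputs was larger than that between the IPs of either antibody. The log2 fold change for Ythdf1 was 2.23 (SE 0.85, unadjusted p = 0.0227, adjusted p = 0.251) by edgeR, and DESeq2 called it at 2.26 (SE 0.79, adjusted p = 0.0465), where it called 2.36% of genes higher. Without cortex input replicate 1 it was 1.34 (SE 0.50, adjusted p = 0.162), and without replicate 2 it was 4.79 (SE 0.63, adjusted p = 4.50e-05), by edgeR. For Ythdf2 the log2 fold change was 1.39 (SE 0.83, adjusted p = 0.384), and 0.52 (SE 0.48, adjusted p = 0.609) without cortex input replicate 1.

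The Slits and Robos of the cortex overlapped their inputs. Slit2 stood at 5.22 and 22.9 normalised CPM in the inputs, at 28.9 and 19.3 with Ythdf1 and at 21.4 and 19.8 with Ythdf2. Robo1 showed the same arrangement, with 9.84 and 22.6 in the inputs, 31.2 and 18.7 with Ythdf1 and 18.7 and 24.2 with Ythdf2. In both cases input replicate 1 was the low value and the second input lay among the IPs. Without cortex input replicate 1, the log2 fold changes of Slit2 were 0.06 and -0.16, those of Robo1 0.13 and -0.08, and those of Robo2 -0.11 and 0.26, for Ythdf1 and Ythdf2. Robo2 stood at 7.23 and 17.8 normalised CPM in the inputs and at 13.2 to 27.5 in the IPs. For Slit1 input replicate 1 was the higher one: 12.6 and 5.22 normalised CPM in the inputs, then 12.1 and 10.3 with Ythdf1 and 13.6 and 9.23 with Ythdf2. Its log2 fold changes of 0.35 and 0.38 (SE 0.52 and 0.51) became 1.08 (SE 0.46, adjusted p = 0.234) and 1.12 (SE 0.46, adjusted p = 0.160) without that library.

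Netrin-1 and the Unc5 receptors were at low levels in cortex. Unc5a stood at 8.89 normalised CPM in cortex input replicate 1, at 0.542 in replicate 2, at 1.78 and 0.652 with Ythdf1 and at 1.52 and 1.19 with Ythdf2. The direction of its log2 fold change turned on 1 library: it was -1.85 (SE 0.97) and -1.73 (SE 0.95) with both inputs, and 1.21 (SE 0.62) and 1.30 (SE 0.61) without input replicate 1, with adjusted p of 0.337 and 0.229 in edgeR. Unc5c was likewise highest in that library, at 9.01 normalised CPM against 3.41 in the other input, 3.34 and 3.31 with Ythdf1 and 1.57 and 3.85 with Ythdf2. Without it the Unc5c log2 fold changes of -0.87 and -1.16 became -0.06 and -0.32.

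Unc5b stood at 5.22 and 1.68 normalised CPM in the cortex inputs and at 3.22 to 4.77 in the 4 IPs, and Ntn1 at 3.91 and 1.04 in the inputs and at 2.88 to 3.79 in the IPs. For both, the IPs lay between the inputs, and input replicate 1 was the higher one. The log2 fold changes of Unc5b, 0.18 and 0.26 (SE 0.58 for both), became 1.14 (SE 0.52, adjusted p = 0.270) and 1.24 (SE 0.51, adjusted p = 0.168) without it, and those of Ntn1, 0.35 and 0.57 (SE 0.98 and 0.97), became the values given above (adjusted p = 0.415 and 0.278, edgeR). Unc5d, a receptor of cortical neurons in migration, stood at 1.30 and 1.72 normalised CPM in the inputs (11 and 155 counts). It stood at 4.52 and 2.34 with Ythdf1 and at 3.26 and 2.14 with Ythdf2. With Dcc it was the other transcript for which all IP libraries exceeded both inputs, and its log2 fold changes were 1.16 (SE 0.76, adjusted p = 0.507) and 0.81 (SE 0.76, adjusted p = 0.604) by edgeR. They were 0.99 (SE 0.77) and 0.64 (SE 0.75) without cortex input replicate 1.

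Blood and meningeal markers varied among the cortex libraries. The 5 erythroid markers summed to 1046 and 99.6 normalised CPM in the inputs, 204 and 457 with Ythdf1 and 118 and 107 with Ythdf2. The 4 meningeal markers summed to 9.25 and 64.3 in the inputs, 65.9 and 62.7 with Ythdf1 and 20.98 and 34.8 with Ythdf2, and the part of either in the members' values was not tested.

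By position, 2 of 10 members (Dcc and Unc5d) had both cortex IPs above both inputs for each antibody, where this held for 21.1% of genes with Ythdf1 and 27% with Ythdf2. Unc5c had both Ythdf1 IPs below both inputs (14.3% of genes). Set against cortex input replicate 2 alone, 6 members were higher in both IPs of each antibody (Slit1, Dcc, Ntn1, Unc5a, Unc5b and Unc5d), against 33.7% and 40.3% of genes. Unc5c with Ythdf1 (38.9% of genes) and Slit2 with Ythdf2 (39.7%) were then lower. Without cortex input replicate 1, edgeR called 0 of the 10 members in either cortex IP, where 1.55% and 2.48% of genes were called higher and 2.17% and 5% lower. Without replicate 2, so that the input was the library that stands apart, it called 2 members higher and 1 lower with Ythdf1 (Slit2 and Dcc higher, Unc5a lower; background 14% and 11.1%) and 3 higher and 2 lower with Ythdf2 (Slit2, Robo2 and Dcc higher, Unc5a and Unc5c lower; background 16.3% and 11.9%).

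The 2 antibodies were compared directly within each tissue. No gene of the 18458 was called in either tissue (0% higher and 0% lower in each), with 2211 genes at an unadjusted p under 0.05 in retina and 739 in cortex, none of them a member. DESeq2 called 0 of the 10 members in either tissue. Of all genes it called 0.813% higher and 2.93% lower in the retina Ythdf1 IP, and 0.352% and 0.0325% in the cortex Ythdf1 IP. With the 6 retina libraries alone edgeR also called 0 members, where 2.57% of genes were higher and 6.56% lower in the Ythdf1 IP. In the retina the log2 ratio of Ythdf1 IP to Ythdf2 IP ran from -0.91 (SE 1.03) for Ntn1 to 0.71 (SE 0.50) for Robo1. Slit1, Slit2 and Robo1 were higher in both Ythdf1 IPs than in both Ythdf2 IPs (32.6% of genes were), and Unc5c was lower (25.4% of genes). In the cortex the ratio ran from -0.36 (SE 0.55) for Robo2 to 0.83 (SE 0.82) for Dcc. Both Ythdf1 IPs of Dcc exceeded both Ythdf2 IPs, which held for 19.7% of genes, and Ntn1 was lower (22% of genes). With library totals in place of TMM the Dcc ratio was -0.36, but the median of all genes then moved from -0.06 to -1.33 and no member was above 0, so that Dcc lay above that median under both scalings.

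The enrichment over input was also compared between the tissues, as retina minus cortex. No member passed the test for either antibody, where edgeR called 0% of genes higher and 0.00542% lower for Ythdf1 and 0% and 0.0325% for Ythdf2. For Ythdf1 the difference ran from -1.44 (SE 1.16) for Dcc to 2.30 (SE 1.33) for Unc5a. For Ythdf2 it ran from -0.57 (SE 1.16) for Dcc to 2.48 (SE 0.88, unadjusted p = 0.0155, adjusted p = 0.358) for Unc5c. Without cortex input replicate 1 these values became -0.55 for Dcc and -0.75 for Unc5a with Ythdf1, and 0.30 for Dcc and 1.64 (SE 0.71, adjusted p = 0.300, edgeR) for Unc5c with Ythdf2. Unc5c was the member whose Ythdf1 IPs lay above both inputs in retina and below both in cortex, and its difference was 1.49 (SE 0.87, adjusted p = 0.409, edgeR), or 0.68 (SE 0.72, adjusted p = 0.654) without cortex input replicate 1. Leaving out cortex input replicate 2 gave 3 calls for Ythdf1 (Unc5a and Unc5b higher, Dcc lower; 8.68% and 16.9% of genes) and 4 for Ythdf2 (Unc5a, Unc5b and Unc5c higher, Dcc lower; 7.59% and 14% of genes).

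Between the inputs, Unc5b was the member called, and it was lower in P0 retina than in E12.5 cortex. At 0.278 and 0.387 against 5.22 and 1.68 normalised CPM its groups did not overlap, and the log2 fold change was -3.32 (SE 0.66, adjusted p = 0.0156, edgeR), where 4.01% of all genes were called lower and 3.51% higher. The call was lost when either retina input was left out, at -3.08 (adjusted p = 0.148) without replicate 1 and -3.56 (adjusted p = 0.0630) without replicate 2, by edgeR. Ntn1, Robo1 and Unc5d were also lower in both retina inputs than in both cortex inputs (18.4% of genes were), with log2 fold changes of -3.89 (SE 1.16), -1.13 (SE 0.50) and -1.64 (SE 0.80). Over the 10 members the median was -1.38, against -0.15 over all genes. In bulk tissue, fewer cells that express a gene and less RNA per cell cannot be told apart.

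Without cortex input replicate 1 the input comparison changed. Then 4 members were lower in retina, where 11.1% of genes were: Dcc with -3.27 (SE 0.46, adjusted p = 1.68e-04), Slit2 with -2.49 (SE 0.42, adjusted p = 7.52e-04), Unc5b with -2.35 (SE 0.53, adjusted p = 0.00557) and Robo1 with -1.62 (SE 0.41, adjusted p = 0.0103) as log2 fold change in edgeR. Unc5a was higher in retina, by 3.15 (SE 0.66, adjusted p = 0.00325), where 8.82% of genes were. Ntn1 stood at -2.73 (SE 0.95) and Unc5d at -1.82 (SE 0.77), and the members' median was -1.72. With both cortex inputs the values for Dcc and Unc5a had been -2.38 (SE 0.86) and 0.14 (SE 0.93). Without cortex input replicate 2, Slit1, Unc5b and Ntn1 were the 3 members called lower, with 11.9% of genes.

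To order the transcripts by level, the authors' FPKM (fragments scaled by gene length and library depth) were used, since these take account of length. They are not comparable between libraries here, because the protein-coding share differs, so only the order within a group is given. In the cortex IPs Dcc came first, at 20.9 and 9.11 FPKM with Ythdf1 and 15.8 and 22.2 with Ythdf2, clear of Robo1 at 4.91 and 1.86 and at 4.30 and 9.43. Then came Slit1, Robo2 and Slit2, and the Unc5 receptors and Ntn1 were lowest by mean, with 2.24 FPKM or less. Cortex input replicate 2 also had Dcc (14.7 FPKM) and Robo1 (7.62) first, while in replicate 1 Dcc had 0.117 and all neighbours in the order by mean had overlapping ranges.

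In the retina inputs the order of mean FPKM was Unc5a (0.841), Robo1 (0.721), Slit1 (0.553), Robo2 (0.528) and Dcc (0.443), which overlapped as neighbours, then Unc5c (0.128) and Slit2 (0.115), and last Unc5d, Unc5b and Ntn1 at 0.0371 or less. Dcc was clear of Unc5c, and Slit2 was clear of Unc5d. In the retina Ythdf1 IPs the first places went to Robo1 (1.36), Slit1 (1.23), Unc5a (1.19) and Dcc (0.766), and in the Ythdf2 IPs to Unc5a (1.13), Robo1, Slit1, Robo2 and Dcc, whose neighbours overlapped there. Unc5b, Unc5d and Ntn1 held the last 3 places in all 3 retina groups. The authors' choice of gene length for the FPKM is not given in any source. Per kilobase of 1 coding transcript, with normalised CPM, Dcc stayed first in both cortex IPs and Robo2 took the first place in all 3 retina groups, so that the place of Robo2 depended on the length used. Its annotated exons cover 16983 bases and its coding transcript 5988.

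**Figure D3:**
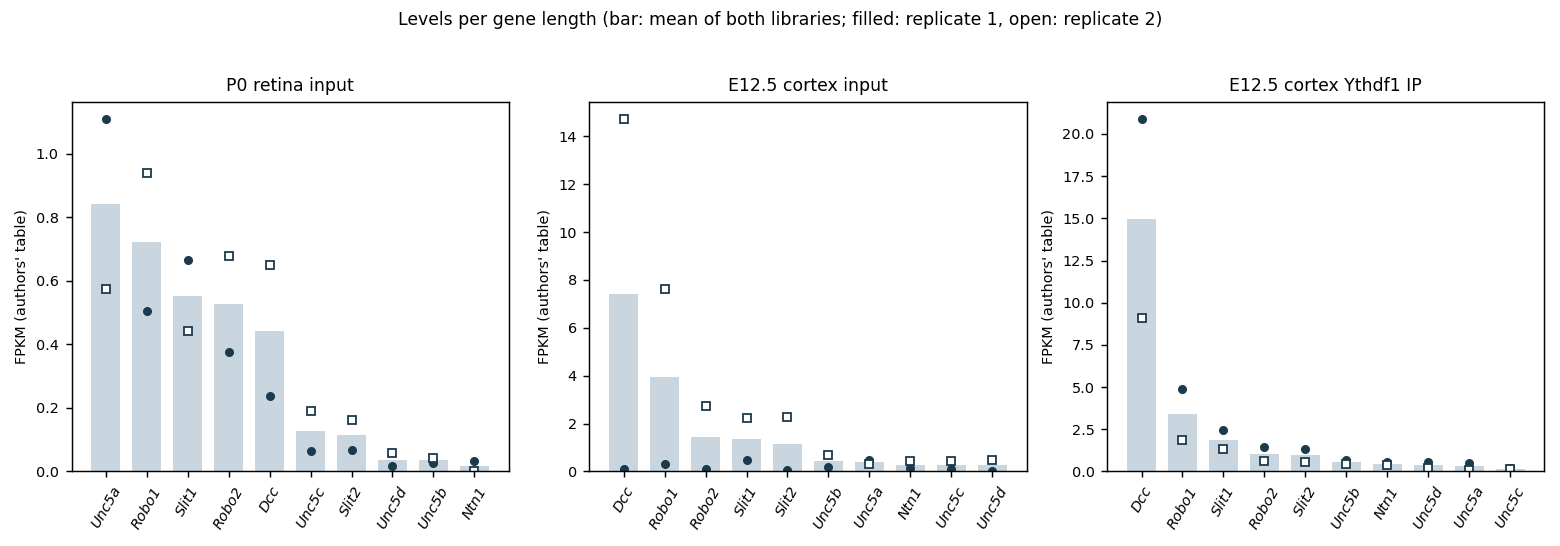
The authors' FPKM of the 10 transcripts in retina input, cortex input and cortex Ythdf1 IP, in the order of their means, with bars for the mean of 2 libraries, filled points for replicate 1 and open squares for replicate 2, on linear axes from 0. Dcc leads the cortex Ythdf1 IP at 20.9 and 9.11 FPKM, and Unc5d, Unc5b and Ntn1 are last in the retina input.

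The 10 coding transcripts were long, from 3995 bases for Unc5a to 10323 for Dcc, with a median of 6775.5 against 3097 over 14156 protein-coding genes. Long transcripts as a whole were above input in the retina IPs. Genes with coding transcripts of 4000 bases or more had a median log2 fold change of 0.64 with Ythdf1 and 0.53 with Ythdf2 in retina, against -0.03 and -0.11 for shorter ones. In cortex the medians were 0.07 and 0.28, against -0.11 and -0.24. Across genes, which are not independent replicates, the Spearman correlation of transcript length with the log2 fold change was 0.333 and 0.430 in retina and 0.053 and 0.211 in cortex. The members' medians of 0.99 and 0.97 in retina stand beside these values. The part of length in the members' fold changes was not tested.

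**Figure D4:**
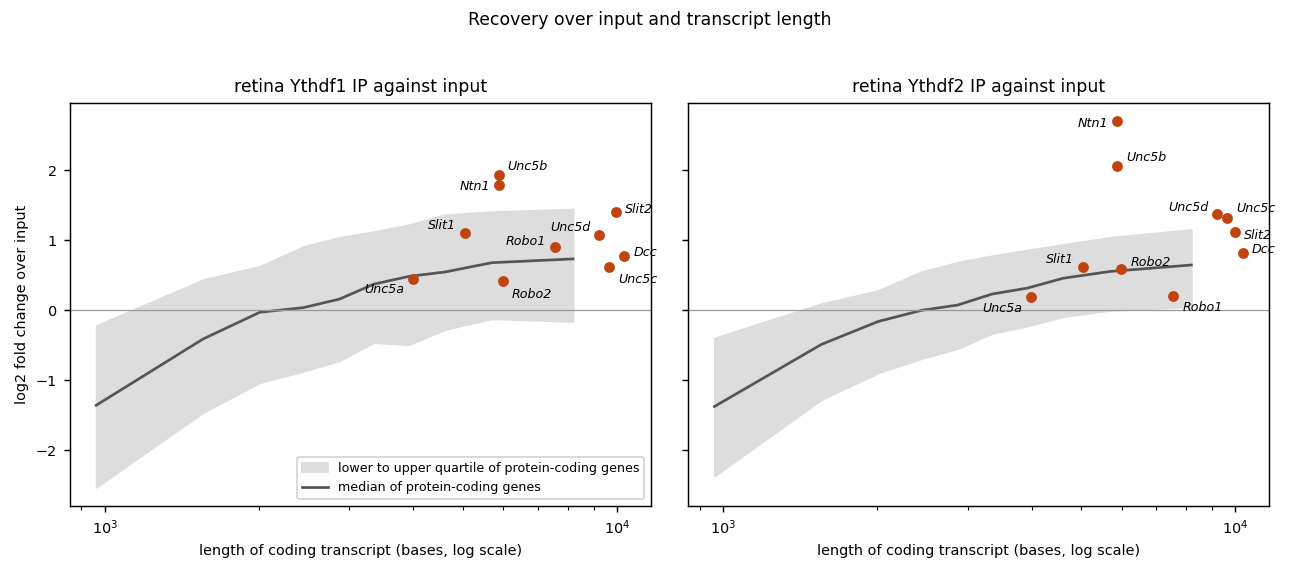
Log2 fold change over retina input against the length of the coding transcript (log axis). The line is the median and the grey band the lower to upper quartile of protein-coding genes in bins of length. The points are the 10 guidance transcripts, which have 3995 bases or more and all lie above 0. With Ythdf1 only Unc5b and Ntn1 exceed the upper quartile of their length bin, and Robo2, Unc5a and Unc5c lie below its median. With Ythdf2 Unc5b, Ntn1, Unc5c and Unc5d exceed the upper quartile, and Robo1 and Unc5a lie below the median.

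Other genes of the pathway were taken from 3 lists: 9 further Slit, Robo and netrin family genes, of which 7 were tested, 20 further ligands and co-receptors, and 37 cytoplasmic effectors. In the retina Ythdf1 IP, 1 of 7 family genes, 1 of 20 ligands and co-receptors and 7 of 37 effectors rose, and 3 effectors fell, where 3.57% of all genes were called higher and 5.23% lower. The medians of the lists were 0.57, 1.36 and 0.74, against 0.00 over all genes. The family gene was Neo1, the Dcc relative neogenin, which went from 16.5 and 14.3 to 50.3 and 49.1 normalised CPM (log2 fold change 1.69, SE 0.43, adjusted p = 0.0343, edgeR). The co-receptor-list gene was Rgmb, a ligand of neogenin, from 2.23 and 1.76 to 13.8 and 14.4 normalised CPM (2.82, SE 0.47, adjusted p = 0.0125, edgeR).

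Of the effectors that rose, the kinases Src (log2 fold change 1.64), Abl2 (1.87) and Ptk2 (2.01, focal adhesion kinase) act downstream of Dcc or Robo receptors. Dapk1 (1.81) is a death-associated kinase that binds Unc5 receptors, Dock1 (1.55) an exchange factor for Rac and Nck2 (1.93) an adaptor, and Ptpn11 was the seventh. The 3 that fell were the small GTPases Cdc42 (-2.50, SE 0.50, adjusted p = 0.0189) and Rhoa (-2.33, SE 0.57, adjusted p = 0.0304) and the actin regulator Wasl (-2.47, SE 0.48, adjusted p = 0.0169), by edgeR. Cdc42 went from 41.2 and 36.2 normalised CPM in the inputs to 6.53 and 7.14 in the IPs. Rhoa shares 32 exonic bases with Tcta on the other strand, and whether counting used strand is not given in the sources used here. These counts moved widely with the libraries in the fit: 28 listed genes rose and 8 fell without cortex input replicate 1 (13.7% and 13.4% of all genes), 22 rose and 9 fell without cortex input replicate 2 (10.3% and 16% of all genes), and 0 to 2 rose and 0 to 3 fell when any one of the other 10 libraries was left out. With the replicate number as a block, 1 listed gene rose and 2 fell. The share of all genes called is not given here for the block or for those 10 libraries. The counts from those fits are therefore not read as a result about the listed genes. In the retina Ythdf2 IP and both cortex IPs, 0 genes of the 3 lists were called by edgeR, where 0.282%, 0.00542% and 0.0108% of all genes were called higher and 1.76%, 0% and 0% lower. DESeq2 called 7 higher and 1 lower in the retina Ythdf2 IP (2.83% and 5.73% of all genes), 3 and 6 in the cortex Ythdf1 IP (2.36% and 4.93%) and 8 and 7 in the cortex Ythdf2 IP (4.08% and 7.92%).

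The transcripts of the antibody targets check nothing, since the antibodies bind protein. Ythdf1 stood at 10.1 and 12.3 normalised CPM in the retina inputs and at 16.3 to 22.7 in the IPs. Ythdf2 stood at 4.31 and 11.2 in the retina inputs and at 8.99 to 17.8 in the IPs.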

How the data were processed

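Gene-level raw counts and FPKM of the 12 libraries were used as deposited by the authors. Per the submitters' processing notes, STAR 2.5, HTSeq and build GRCm38 were used; the annotation and strand setting are not stated. Ensembl identifiers were matched to GENCODE M21 for symbols and 1-based coordinates (52403 of 52550 matched). Counts were filtered with filterByExpr (minimum count 10, minimum total 15) and scaled by TMM. They were fitted in 1 robust edgeR 4.0.16 quasi-likelihood model of 6 group means (6 residual degrees of freedom, R 4.3.3). The code was run on simulated data with the same spread in all genes and libraries, which does not test its error rates on these libraries. There were 9 comparisons, two-sided, adjusted by Benjamini-Hochberg over all genes. SE was computed from the log2 fold change and the F statistic (size over square root). Reads carry no molecular identifiers, so 3-count floors cover counting error only. The alternatives were a replicate block, DESeq2 1.42.0, other scalings, no filter, limma 3.58.1 on log2(FPKM + 1) and log2(FPKM + 0.1), 1 tissue alone and each library left out. All 10 members were named whatever their values, as was each listed pathway gene called in an IP (at most 6 per list and direction, by p; Ptpn11 was named after its value was seen). The members and lists were chosen with earlier results of these data known.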

Additional observations from a re-analysis of the deposited data

How the results depend on the processing

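Of 69 pairs of gene and comparison examined, 46 kept their direction under every alternative run. Low counts limit Ntn1, Unc5b and Unc5d in retina, and Unc5d in cortex input replicate 1. With 2 libraries a group a single library can decide a call. Same-numbered libraries did not deviate together (r from -0.0313 to 0.0582), so replicate numbers were not taken as pairs, although the series text places input and IP within each replicate. With 2 libraries a group each r compares 1 deviation per gene and group, so it cannot exclude pairing. This holds most where cortex input replicate 1 stands apart. With the replicate block, 0 members differed between the inputs (1 without it) and 1 listed pathway gene rose in the retina Ythdf1 IP (9 without it). The share of all genes called with the block is not given here. The cause of each change below was not tested.

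With the 6 libraries of a tissue alone, 2 members were higher in the retina Ythdf1 IP and 2 in the Ythdf2 IP, in place of 0. Of all genes, 17.3% and 9.55% were then called higher. In the cortex Ythdf1 IP DESeq2 called 1 member higher (2.36% of all genes), as did the fit with no filter (0.729%). Between the inputs, DESeq2 and the fit with no filter called 4 members lower in retina, and library totals and both limma fits called 0. DESeq2 called 10.7% of all genes lower and 8.01% higher there, and the fit with no filter 5.61% and 2.77%. Leaving out 1 library changed the numbers of members called in each IP, in the tissue differences and between the inputs. The calls made without either cortex input are given above, beside the share of all genes called in the same fit.

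For the listed pathway genes in the retina Ythdf1 IP (9 higher, 3 lower), 0 were higher with library totals and both limma fits. Those higher were 5 with TMM on protein-coding genes, 5 with no filter (2.47% of all genes) and 24 with the tissue alone (17.3%). Those lower were 6 with DESeq2 (11.5% of all genes), 0 with library totals and both limma fits, and 8 with the tissue alone (20.3%). In the retina Ythdf2 IP 7 were higher with DESeq2 (2.83% of all genes), 1 with no filter (0.412%) and 12 with the tissue alone (9.55%). There 1 was lower with DESeq2 (5.73%) and with the tissue alone (10.7%). In the cortex Ythdf1 IP 3 were higher and 6 lower with DESeq2 (2.36% and 4.93% of all genes), and 2 lower with no filter (2.81%). In the cortex Ythdf2 IP 8 were higher and 7 lower with DESeq2 (4.08% and 7.92% of all genes), and 3 and 3 with no filter (0.991% and 3.37%). Leaving out 1 library gave 0 to 28 higher and 0 to 9 lower for retina Ythdf1, 0 to 11 and 0 to 1 for retina Ythdf2, 0 to 14 and 0 to 7 for cortex Ythdf1, and 0 to 18 and 0 to 9 for cortex Ythdf2.

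Library totals in place of TMM moved the median of all genes to -0.58 in the cortex Ythdf1 IP and to 0.72 in the cortex Ythdf2 IP. With them the Ythdf1 values of Slit2, Robo1 and Robo2 turned to -0.30, -0.24 and -0.48, the Ythdf2 values of Unc5a and Unc5c to 0.89 and 0.41, and the antibody ratio of Dcc to -0.36, where the median of all genes moved to -1.33. On log2(FPKM + 1), Robo2 with Ythdf1 was -0.038, Unc5a and Unc5c with Ythdf2 0.30 and 0.09, and the Dcc ratio -0.41; on log2(FPKM + 0.1) the last 3 were 0.74, 0.27 and -0.44. The input difference of Unc5a was -0.09 with DESeq2, -0.044 with RLE factors and -0.0023 with TMM on protein-coding genes.

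Leaving out 1 library gave these ranges where a sign changed. In retina with Ythdf2, Robo1 ran from -0.14 to 0.64 and Unc5a from -0.25 to 0.81. In cortex with Ythdf1, Slit1 ran from -0.23 to 1.08, Robo2 from -0.11 to 1.16, Ntn1 from -0.44 to 1.51, Unc5a from -2.88 to 1.21 and Unc5b from -0.52 to 1.14. In cortex with Ythdf2, Slit1 ran from -0.12 to 1.12, Slit2 from -0.16 to 2.00, Robo1 from -0.08 to 1.15, Ntn1 from -0.13 to 1.75, Unc5a from -2.70 to 1.30 and Unc5b from -0.35 to 1.24. Between the inputs, Robo2 ran from -0.59 to 0.81, Dcc from -3.27 to 0.30 and Unc5a from -0.76 to 3.15. The cortex antibody ratio of Robo2 ran from -0.82 to 0.10, the tissue difference of Unc5a with Ythdf1 from -0.75 to 3.12 and that of Dcc with Ythdf2 from -3.30 to 0.30.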

Other observations

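For each member, the protein-coding gene with a mean of at least 5 normalised CPM whose log2 level was most alike over the 12 libraries was sought among about 5846 genes, as a description with no test. All correlations share tissue, depth and the library that stands apart. Robo1 was most like Ap1g1 (Pearson r = 0.984), Slit2 like Myh10 (0.975), Unc5a like Doc2b (0.975), Dcc like Setbp1 (0.973) and Unc5b like Kalrn (0.959). Ntn1 was most like Trak1 (0.926), Slit1 like Igsf8 (0.919), Robo2 like Plekha8 (0.915), Unc5d like Trps1 (0.899) and Unc5c like Crim1 (0.875).

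An antisense gene, Gm15688, overlaps 118 exonic bases of Unc5c and had 70 counts over the 12 libraries, against 1893 for Unc5c. Hk3 overlaps 34 exonic bases of Unc5a on the other strand and had 35 counts, against 1307 for Unc5a. No other member shared exonic bases with another annotated gene.

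On the GRCm38 build the genes lie at chr19:41600257-41743665 (Slit1, minus strand), chr5:47983138-48307733 (Slit2, plus), chr16:72308306-73046095 (Robo1, plus), chr16:73891839-74411825 (Robo2, minus), chr18:71253634-72351069 (Dcc, minus), chr11:68209364-68400823 (Ntn1, minus), chr13:54949411-55006018 (Unc5a, plus), chr10:60762593-60831581 (Unc5b, minus), chr3:141465216-141834924 (Unc5c, plus) and chr8:28646717-29219636 (Unc5d, minus).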
